A study of Rattus norvegicus with 8 samples.

Results

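The opioid system of the spinal cord was examined as 8 genes, 4 for peptide precursors (Penk, Pdyn, Pnoc and Pomc) and 4 for receptors (Oprm1, Oprd1, Oprk1 and Oprl1). The members were all array probes, controls apart, whose gene name was one of these symbols. The rule uses no measured value, although the gene family was picked with earlier results of these data known. They comprised 12 probes on 31 spots per array, of 30367 probes on 58717 spots and 16429 gene symbols in all. RNA came from the lumbar L6S1 spinal cord of male Wistar rats aged 12 weeks, 4 exposed to water avoidance (WA) stress for 10 days and 4 control rats, which were handled according to the methods of the study. In WA stress a rat stays on a small platform surrounded by water, here for 1 h a day, and the cord was collected 24 h after the last session. WA stress is a psychological stressor used as a model of visceral hyperalgesia. The methods of the study name isoflurane anaesthesia before the cord was taken, and no other drug or transgene for either group. Each rat was measured on 1 Agilent 1-colour array of 60-base probes. The 8 arrays shared 1 slide. Stressed rats filled row 1 of it and control rats row 2, so that slide row and group cannot be told apart.

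Opioid peptides are cut from large precursors. Penk encodes proenkephalin, the source of Met- and Leu-enkephalin, Pdyn the source of the dynorphins, Pnoc the source of nociceptin and Pomc the source of beta-endorphin. Enkephalins act mainly on delta and mu receptors (Oprd1 and Oprm1), dynorphins on the kappa receptor (Oprk1) and nociceptin on its own receptor (Oprl1). All are receptors coupled to inhibitory G proteins, and in the dorsal horn, where enkephalin and dynorphin are made by local neurons, they dampen the transmission of pain.

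The sequences of 4 probes are shown because Penk and Oprl1 had the largest differences and the Oprl1 probes lie at different places in 1 transcript. The Pomc probe is shown because its position bears on which precursor RNA it reads. All lie in protein-coding sequence and are given 5′ to 3′ with their place in the rn4 assembly, as the array files state it. Capitals mark the codons of the Met-enkephalin sequence in the Penk probe and the stop codon in the second Oprl1 probe and the Pomc probe. In the Penk probe the reading frame goes on past these codons with those of arginine and phenylalanine.
Penk, base 1075 of the transcript, chr5:17509637-17509696, minus strand: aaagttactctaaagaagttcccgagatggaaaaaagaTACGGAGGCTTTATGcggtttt
Oprl1, base 362, chr3:170872595-170872654, plus strand: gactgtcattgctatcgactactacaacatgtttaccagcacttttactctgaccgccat
Oprl1, base 1044, chr3:170873358-170873417, plus strand: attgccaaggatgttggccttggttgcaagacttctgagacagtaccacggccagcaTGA
Pomc, base 773, chr6:26937625-26937684, plus strand: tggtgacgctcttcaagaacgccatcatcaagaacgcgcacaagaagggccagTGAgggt
The Penk probe thus reads enkephalin-coding sequence itself. Of the 12 probes, 11 carry a RefSeq accession, and all 11 accessions were found under the same gene symbol in the RefSeq table (GRCr8 assembly).

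Levels are given as the log2 processed signal minus the log2 of the 75th percentile of all spots of that array, so that 0 is a signal as bright as that percentile and 1 unit is a doubling. Probes differ in how well they bind, so the level of a probe was compared between rats and not with that of another probe. The groups were compared with limma, with Benjamini-Hochberg adjustment over the 23677 probes tested, those clearly above background on 4 or more of the 8 arrays. The unscaled 75th percentile averaged 2156 ± 228 (SD) in the 4 control rats and 1871 ± 87.1 (SD) in the 4 stressed rats. On each array 22998 to 24064 probes were clearly above background. Precision is limited by the number of arrays. Nothing in the labels says more of how the rats were housed or drawn than their group, and the p values measure the spread between these rats.

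In 3 rats, values outside the opioid genes stood apart from those of their group. Control replicate 2 differed from the other control rats in the difference between 5′ and 3′ probes of the same transcript. The median of this difference over 1885 transcripts, centred over the arrays, was 0.22 in control replicate 2, −0.30 to −0.18 in the other 3 control rats and 0.09 to 0.17 in the stressed rats. Apart from control replicate 2 it split the rats as the groups do, so fits with it as a covariate lean on that rat. Control replicate 2 also lay with the stressed rats on the first principal component. The segment of origin was checked by posterior Hox genes, 4 of which were on the array under their usual names. Hoxc11 was −2.58 in stressed replicate 2 and −5.09 in stressed replicate 3, against −0.55 to 0.03 in the other 6 rats. Hoxa10 was −0.33 and −3.46 in the same 2 rats and 0.28 to 0.52 in the others. The tissue of these 2 rats, labelled like the rest, thus had less of the transcripts that mark lumbosacral cord. Of 6 oligodendrocyte markers 5 had a positive log2 fold change (stressed minus control), with a median of 0.20. In limma 1 of the 6 was called at FDR below 0.1, against 3.74% of all tested probes: the myelin gene Mog at 0.90 (SE 0.18, adjusted p = 0.0721). Cnp differed by 1.69 (SE 0.58, adjusted p = 0.181). No marker was called of 7 for astrocytes and 6 for microglia. Of the astrocyte markers 5 were positive, with a median of 0.26, and of the microglia markers 5, with a median of 0.08. Schwann cell markers, which nerve roots would bring, varied within both groups, from a mean of −5.55 to −0.05 in control and −4.99 to −1.75 in stressed rats, and 0 of 4 were called.

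All 12 opioid probes were well above background on all 8 arrays and entered the test. The largest log2 fold changes were a higher Oprl1, read by dim probes, and a lower Penk in stressed rats. No probe passed FDR below 0.1 in limma (0 of 12), where 3.74% of all tested probes did. At an unadjusted p below 0.05, 2 of 12 probes passed, the Penk probe and the 5′ probe of Oprl1, against 20.3% of all tested probes. Signals of the 2 groups overlapped at all 12 probes, whereas 12.1% of the tested probes had no overlap. The shares of opioid probes were therefore not above those of the whole array. The median log2 fold change, stressed minus control, was −0.20 over the 4 precursor probes, of which 3 were negative, and 0.19 over the 8 receptor probes, of which 7 were positive. These 8 probes read only 4 receptor genes, of which 3 were positive and 1 negative by their brightest probe. Over all tested probes the median was 0.06 with an SD of 0.36. In pieces of cord, fewer cells of a type and less RNA per cell cannot be told apart.

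**Figure D1:**
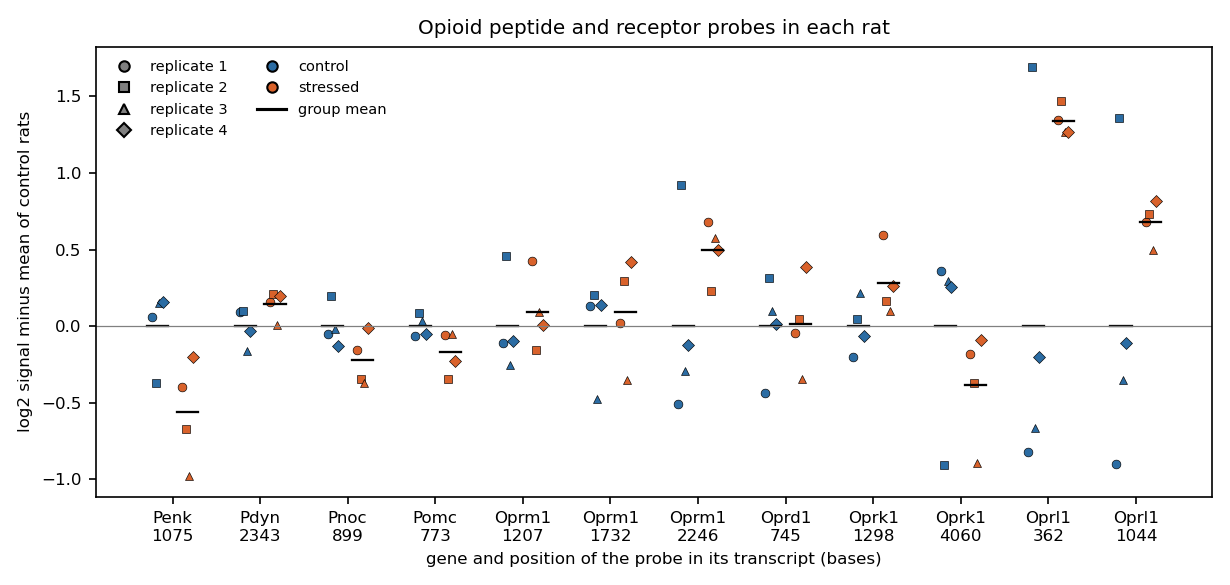
Log2 signal of each opioid probe in each rat, as the difference from the mean of the 4 control rats (vertical axis); the horizontal axis gives the gene and the base of its transcript at which the probe lies. Blue points are control and orange points stressed rats, the shape gives the replicate number and black lines are group means. The groups overlap at all 12 probes. Control replicate 2 (blue square) is the highest or lowest control rat, with the widest gap to its neighbour, for Penk, Pnoc and both Oprl1 probes. The same holds for Oprm1 at bases 1207 and 2246 and Oprk1 at base 4060.

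Penk had the largest difference among the precursors. Its signal was 2.88, 2.45, 2.98 and 2.98 in control replicates 1 to 4 and 2.43, 2.15, 1.85 and 2.62 in stressed replicates 1 to 4. Stressed replicates 1, 2 and 3 were below every control rat, whereas stressed replicate 4 was above control replicate 2. The control rats averaged 2.82 ± 0.25 and the stressed rats 2.26 ± 0.34 (SD, n = 4 each). The log2 fold change was −0.56 (SE 0.19, 95% interval −1.01 to −0.12), a linear change of −32.3%, with an adjusted p of 0.179 in limma. The exact permutation test gave a two-sided p of 0.0571, where the smallest p that 70 choices of 4 rats allow is 0.0286. By log2 fold change, 0.963% of tested probes were lower than Penk. By its p in limma, Penk ranked 2559 of the 23677 tested probes.

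The Penk signal varied little between spots of an array. The probe is printed on 10 spots, none was marked as an outlier, and the SD over the spots of an array was 0.02 to 0.08. These values cover the error between spots only. With 1 array per rat, differences in labelling or hybridisation between arrays cannot be told apart from differences between rats. The signal before scaling was 6922 to 18470, far from the dim end of the array, and no spot was saturated.

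The 2 rats with the lowest Penk were stressed replicates 2 and 3, the same rats in which Hoxc11 and Hoxa10 were low. Without both rats the Penk log2 fold change was −0.30 (adjusted p = 0.627 in limma), and without control replicate 2 alone it was −0.69 (adjusted p = 0.0262). Without these 3 rats it was −0.42 (adjusted p = 0.0454), since control replicate 2 was the lowest control. Adding the 5′ minus 3′ difference to the fit gave −0.26 (adjusted p = 0.512). Penk was lower in stressed rats in each of these 4 fits, while the call depended on which rats were kept. The part of the dissected segment and of the 5′ minus 3′ difference in the result was not tested.

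**Figure D2:**
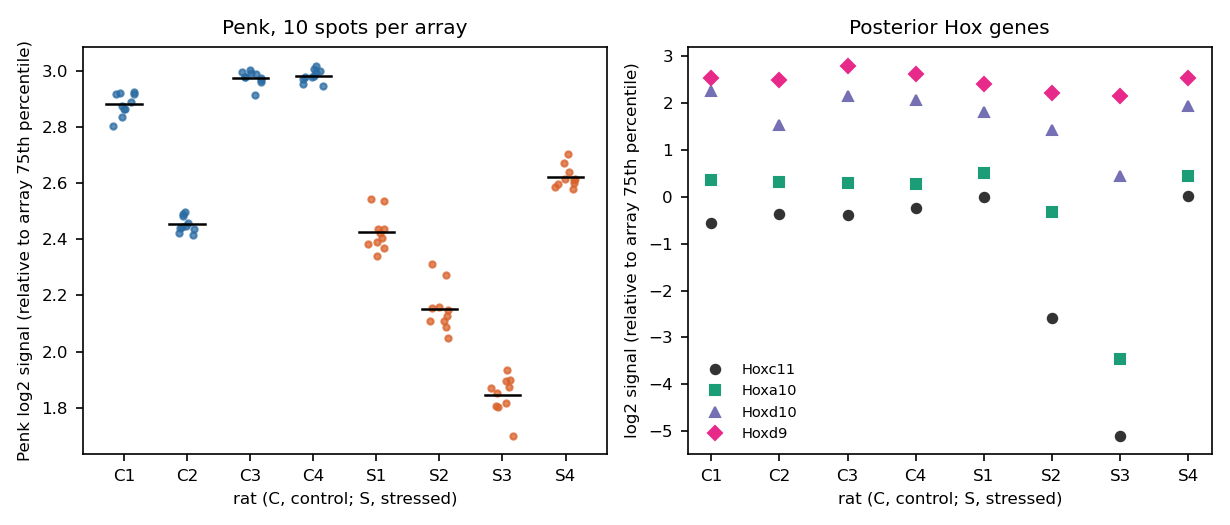
Left, log2 signal of the 10 Penk spots of each array (points) with their mean (line), for control rats C1 to C4 in blue and stressed rats S1 to S4 in orange. Right, log2 signal of 4 posterior Hox genes in the same rats. Penk spots of an array lie close together, from an SD of 0.02 to one of 0.08, and S2 and S3 have both the lowest Penk means and the lowest Hoxc11, Hoxa10, Hoxd10 and Hoxd9.

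Markers of neurons were set beside Penk. Enkephalin neurons of the dorsal horn include both inhibitory and excitatory cells. Of 7 markers of inhibitory neurons, 0 passed FDR below 0.1 and 0 passed an unadjusted p below 0.05 in limma. Their log2 fold changes ran from −0.22 to 0.07 with a median of −0.16, and 6 of 7 were negative. The mean of their signals was −0.82 to −0.70 in control rats and −1.08 to −0.77 in stressed rats. Of 6 markers of excitatory neurons 1 was called, Prrxl1, a transcription factor of dorsal horn and sensory neurons, with a log2 fold change of −0.43 (SE 0.08, adjusted p = 0.0604). The 8 general neuron markers were split, 4 positive and 4 negative, with a median of −0.03. At FDR below 0.1, where 3.74% of all tested probes were called, 1 of the 8 was lower and 0 were higher. The lower one was the neuronal enolase Eno2 at −0.37 (SE 0.07, adjusted p = 0.0649), whose second probe differed by −0.04. The neurofilament gene Nefl differed by 0.57 (SE 0.15, adjusted p = 0.12). The part of neuron content in the Penk result was not tested.

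Pdyn, the dynorphin precursor, differed in the opposite direction to Penk. Its signal was −0.73, −0.72, −0.98 and −0.85 in control replicates 1 to 4 and −0.66, −0.61, −0.81 and −0.63 in stressed replicates 1 to 4. Stressed replicates 1, 2 and 4 were above every control rat and stressed replicate 3 was not. The log2 fold change was 0.14 (SE 0.09, 95% interval −0.06 to 0.35, adjusted p = 0.373 in limma), and the exact permutation p was 0.114. A doubling or a loss of the size seen for Penk lay outside this interval. The difference Penk minus Pdyn within each array, chosen after the values were seen and given with no test, was 3.18 to 3.96 in control rats and 2.66 to 3.25 in stressed rats, a mean difference of −0.71. The mean difference was −0.34 for Penk minus Pnoc and −0.39 for Penk minus Pomc, and the groups overlapped for all 3 pairs.

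Pnoc, the nociceptin precursor, was 1.34, 1.59, 1.37 and 1.27 in control replicates 1 to 4 and 1.24, 1.05, 1.02 and 1.38 in stressed replicates 1 to 4. Stressed replicate 4 lay among the control rats and the other 3 lay below them. The means were 1.39 ± 0.14 (SD, n = 4) and 1.17 ± 0.17 (SD, n = 4). The log2 fold change was −0.22 (SE 0.11, 95% interval −0.48 to 0.03, adjusted p = 0.295 in limma), with an exact permutation p of 0.143. The 2 lowest rats were again stressed replicates 2 and 3, and without them and control replicate 2 the log2 fold change was −0.02.

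Pomc, known mainly from the pituitary and the hypothalamus, gave a signal in every cord. It was −0.99, −0.84, −0.89 and −0.97 in control replicates 1 to 4 and −0.98, −1.27, −0.97 and −1.15 in stressed replicates 1 to 4. Stressed replicates 2 and 4 were below all control rats and stressed replicates 1 and 3 lay among them. The log2 fold change was −0.17 (SE 0.09, 95% interval −0.38 to 0.04, adjusted p = 0.314 in limma), with an exact permutation p of 0.143. The probe covers the last codons and the stop codon, a stretch shared by long and shorter Pomc transcripts, so its signal does not by itself mean that the whole precursor is encoded. Pituitary markers, as signs of another known source of Pomc, were mixed. Of 6 such genes, the hormone gene Lhb (mean −3.12 in control and −2.97 in stressed rats) and the transcription factor gene Pou1f1 (−4.63 and −4.33) were well above background on all 8 arrays, and both entered the test with 0 calls. Cga was well above background on 3 arrays, Gh1 and Prl on 1 each and Tshb on 0.

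Mu receptor transcripts were measured by 3 Oprm1 probes at bases 1207, 1732 and 2246 of different RefSeq variants. All were dim, with a signal before scaling of 34.9 to 81.1, and none passed the test. The probe at base 2246, of variant 1, was −5.94, −4.51, −5.72 and −5.56 in control replicates 1 to 4 and −4.76, −5.20, −4.85 and −4.93 in stressed replicates 1 to 4. All 4 stressed rats were above 3 of the control rats, and control replicate 2 was above all stressed rats. Its log2 fold change was 0.50 (SE 0.29, 95% interval −0.18 to 1.18, adjusted p = 0.363 in limma). Without control replicate 2 it was 0.80 (adjusted p = 0.00528), and with the 5′ minus 3′ covariate it was −0.22. Sensory neurons of the dorsal root ganglion also express Oprm1, and 0 of 5 tested markers of them were called, with a mean signal of −4.55 to −4.11 in control and −4.50 to −4.14 in stressed rats. The other two Oprm1 probes differed by 0.09 (SE 0.18, adjusted p = 0.786) at base 1207 and by 0.10 (SE 0.21, adjusted p = 0.809) at base 1732.

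Oprd1, the delta receptor and main target of enkephalin, was measured by 1 probe in coding sequence. It was −2.86, −2.11, −2.33 and −2.41 in control replicates 1 to 4 and −2.47, −2.38, −2.77 and −2.04 in stressed replicates 1 to 4. The groups covered nearly the same range. The means were −2.43 ± 0.32 (SD, n = 4) and −2.41 ± 0.30 (SD, n = 4), a log2 fold change of 0.01 (SE 0.20, 95% interval −0.45 to 0.47, adjusted p = 0.977 in limma). The interval allows a difference as large as 0.45 in either direction, and the sign turned under other scalings (−0.02 with normexp, −0.09 with quantile normalization).

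Oprk1, the receptor for dynorphin, had 2 probes whose differences were opposite in sign. The probe at base 1298 was −5.79, −5.53, −5.36 and −5.65 in control replicates 1 to 4 and −4.99, −5.42, −5.48 and −5.32 in stressed replicates 1 to 4, a log2 fold change of 0.28 (SE 0.14, 95% interval −0.03 to 0.59, adjusted p = 0.283 in limma). The probe at base 4060, of an Ensembl transcript, was −3.09, −4.35, −3.15 and −3.19 in control replicates 1 to 4 and −3.62, −3.81, −4.34 and −3.54 in stressed replicates 1 to 4, a log2 fold change of −0.38 (SE 0.31, 95% interval −1.11 to 0.34, adjusted p = 0.498). At the second probe the 4 stressed rats were below the control rats apart from control replicate 2, which was the lowest of all 8. Without that rat the difference was −0.69 (adjusted p = 0.0316), and with the 5′ minus 3′ covariate it was 0.32. No single direction can be given for Oprk1.

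Oprl1, the nociceptin receptor, had the largest receptor difference. Its 5′ probe, at base 362, was −7.37, −4.86, −7.21 and −6.75 in control replicates 1 to 4 and −5.20, −5.08, −5.28 and −5.28 in stressed replicates 1 to 4. The stressed rats lay close together and above 3 of the control rats, while control replicate 2 was the highest of all 8. The log2 fold change was 1.34 (SE 0.51, 95% interval 0.16 to 2.51, adjusted p = 0.208 in limma), and the exact permutation p was 0.143. The probe was dim, with a signal of 13.5 to 63.9 before scaling. In control replicates 1 and 3 only 1 of its 2 spots was well above background.

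The second Oprl1 probe, at base 1044 and ending on the stop codon, was −6.45, −4.19, −5.90 and −5.66 in control replicates 1 to 4 and −4.87, −4.82, −5.05 and −4.73 in stressed replicates 1 to 4. The order of the groups was the same as at base 362, with a smaller log2 fold change of 0.68 (SE 0.43, 95% interval −0.31 to 1.67, adjusted p = 0.388 in limma). A further probe, printed on 10 spots and annotated in the files as nociceptin receptor but under an Ensembl transcript name, lies downstream at base 2544 of that transcript (chr3:170874575-170874634). It is no member by its name, and its log2 fold change was 0.11 (SE 0.13, 95% interval −0.19 to 0.40, adjusted p = 0.646). A probe of the same unnamed transcript that lies upstream of both Oprl1 probes (chr3:170872073-170872132) was well above background on 0 arrays and was not tested. Over the 3 probes that could be tested, from the 5′ to the 3′ end, the difference was thus 1.34, 0.68 and 0.11, and their intervals overlap.

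The signal of both Oprl1 probes was higher in all 4 stressed rats and control replicate 2 than in the other 3 control rats. The 5′ minus 3′ difference of the arrays was higher in the same rats. Within the 4 stressed rats both ranges were narrow. The 5′ minus 3′ difference was 0.09 to 0.17, and the signal was −5.28 to −5.08 at base 362 and −5.05 to −4.73 at base 1044. The part of the 5′ minus 3′ difference in the Oprl1 result was not tested. Apart from control replicate 2, that difference split the rats as the groups do, so a fit with it as a covariate leans on that rat. In that fit the log2 fold changes were 0.03 at base 362 and −0.36 at base 1044. Without control replicate 2 they were 1.90 (adjusted p = 0.000672 in limma) and 1.14 (adjusted p = 0.00495). With normexp background correction, which compresses dim signals, they were 0.36 and 0.26.

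**Figure D3:**
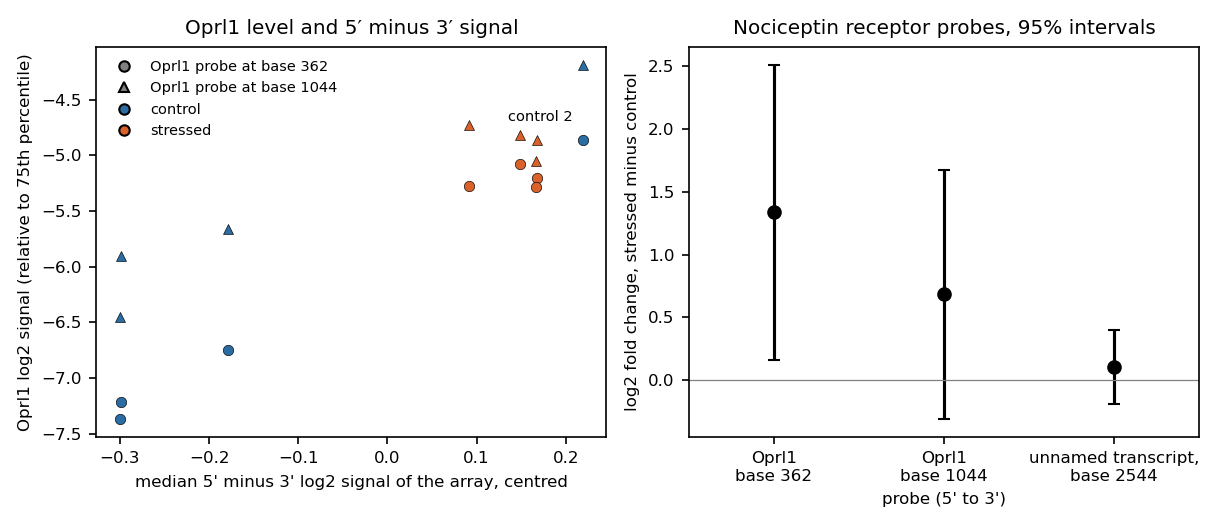
Left, log2 signal of the 2 Oprl1 probes in each rat against the centred median 5′ minus 3′ log2 signal of its array, with control rats in blue and stressed rats in orange. Right, log2 fold change with its 95% interval for the 2 Oprl1 probes and for the downstream probe of the unnamed transcript annotated as nociceptin receptor. Control replicate 2 lies with the stressed rats, and the fold changes of these 3 probes are 1.34, 0.68 and 0.11 from 5′ to 3′, with overlapping intervals.

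How many opioid probes were called depended on control replicate 2. Without this rat, 5 of 12 opioid probes passed FDR below 0.1: Penk and Oprk1 at base 4060 with lower signal in stressed rats, and Oprm1 at base 2246 and both Oprl1 probes with higher signal. In the same fit 10038 of 23677 probes passed, against 885 with all 8 rats. In the other 7 fits that left out 1 rat, 0 of 12 opioid probes passed. The highest adjusted p over these 8 fits was 0.394 for Penk and 0.436 for Oprl1 at base 362.

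**Figure D4:**
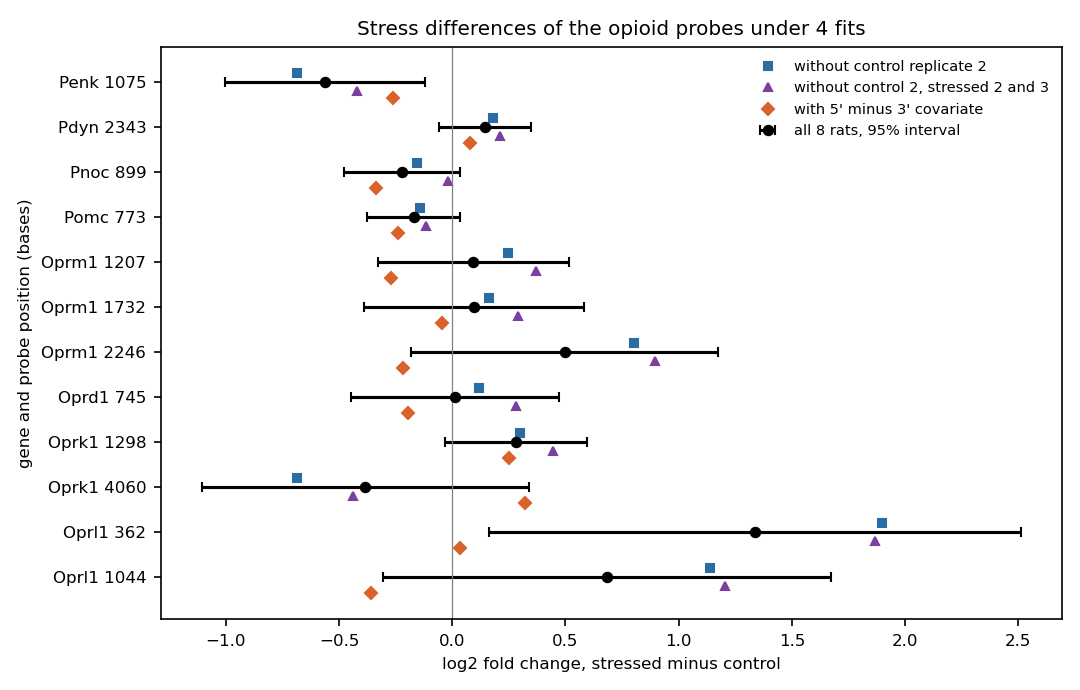
Log2 fold change, stressed minus control, of the 12 opioid probes (horizontal axis). Black points with bars are the fit of all 8 rats with 95% intervals, and the coloured points are fits without control replicate 2, without control replicate 2 and stressed replicates 2 and 3, and with the 5′ minus 3′ covariate. Penk stays negative in all 4 fits, whereas Oprl1 moves from 1.90 to 0.03 at base 362.

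The proteins that make, clear and transmit opioid peptides were taken as 6 lists with 89 genes, 85 of which were tested. At FDR below 0.1 limma called 3 of them (3.53%, against 3.74% of all tested probes), 2 higher and 1 lower in stressed rats, and their median log2 fold change was 0.02. The lists were thus called at the rate of the array as a whole.

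Among the 16 tested genes of peptide processing, 1 was lower and 0 were higher. The lower gene was Scg2, which encodes secretogranin II, a protein of the dense-core granules in which peptides are stored. Its signal was 3.46 to 3.52 in the 4 control rats and 3.00 to 3.22 in the 4 stressed rats, which did not overlap. The log2 fold change was −0.42 (SE 0.07, adjusted p = 0.0584 in limma). Among the 14 tested genes of peptide breakdown, 1 was higher and 0 were lower. Ece2, an endothelin-converting enzyme that also cleaves opioid peptides, was −4.89 to −4.50 in control and −4.24 to −3.65 in stressed rats. It differed by 0.63 on the log2 scale (SE 0.15, adjusted p = 0.0895). With normexp its adjusted p was 0.336 and with quantile normalization 0.191, with the same sign.

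Of 11 tested G protein subunits, Gnai1 was higher and none was lower. Gnai1, an inhibitory alpha subunit through which opioid receptors signal, was −3.40 to −2.92 in control and −2.61 to −2.24 in stressed rats. It differed by 0.70 on the log2 scale (SE 0.13, adjusted p = 0.0658 in limma). The calls of Ece2, Scg2 and Gnai1 each held in some fits only: of the 8 fits that left out 1 rat, Scg2 passed in 2 and Ece2 and Gnai1 in 1 each.

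Receptor desensitisation, receptor effectors and trafficking gave 0 calls of 18, 15 and 11 tested genes, each read by its brightest probe. At an unadjusted p below 0.05 in limma, 4, 2 and 1 of them passed, against 20.3% of all tested probes. A second, dimmer probe of Rgs17, a regulator of G protein signalling, did pass FDR below 0.1. Its log2 fold change was 0.39 (SE 0.08, adjusted p = 0.0781) with no overlap between groups. The brightest Rgs17 probe differed by 0.26 (SE 0.19, adjusted p = 0.462). The genes with the smallest p in each list had these values. Rgs14, of the same family as Rgs17, differed by 0.34 (SE 0.12, adjusted p = 0.195), and the receptor kinase Grk6 by −0.27 (SE 0.10, adjusted p = 0.195). Prkaca, the catalytic subunit of protein kinase A, differed by −0.25 (SE 0.08, adjusted p = 0.181), and Cacna1b, the N-type calcium channel that opioid receptors inhibit, by −0.29 (SE 0.11, adjusted p = 0.216). At Grk6, Prkaca and Cacna1b a second, dimmer probe had the opposite sign. Kcnip3, also known as DREAM and a repressor of Pdyn, differed by 0.35 (SE 0.13, adjusted p = 0.202), and Rest, a repressor of neuronal genes, by 0.49 (SE 0.23, adjusted p = 0.277).

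**Figure D5:**
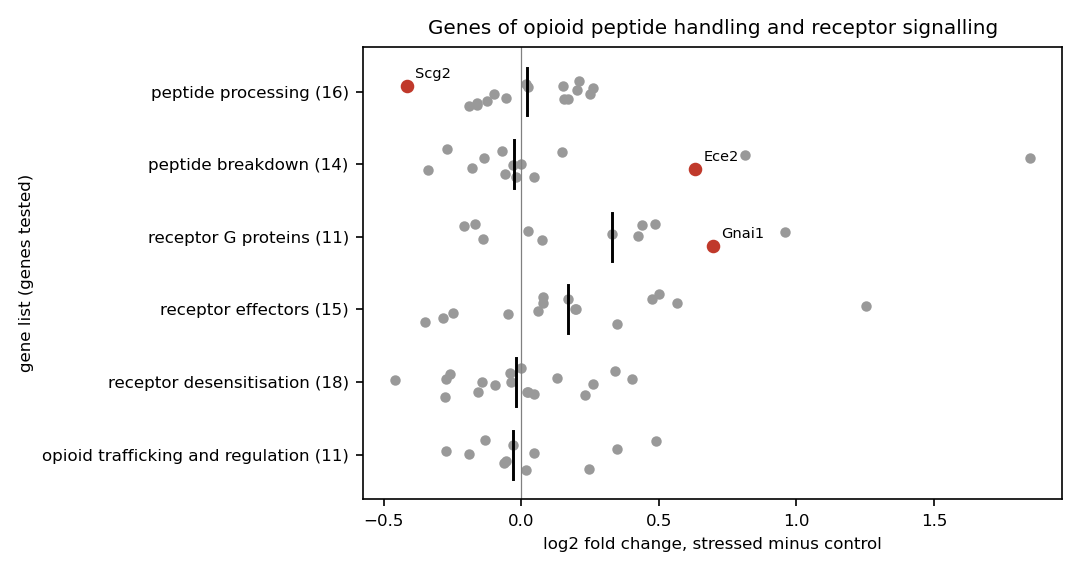
Log2 fold change, stressed minus control, of each tested gene (points) in 6 lists of opioid peptide handling and receptor signalling, with the number tested in brackets and black lines at the list medians. Genes with adjusted p below 0.1 are red and named: Scg2 at −0.42, Ece2 at 0.63 and Gnai1 at 0.70.

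The genes whose signal over the 8 arrays was most like that of 3 opioid genes are given as a description, since all arrays share the group difference and the 5′ minus 3′ difference. Penk was most like Slc30a3, a zinc transporter of synaptic vesicles (Pearson r = 0.997), C1qtnf4 (r = 0.994) and Hap1, a huntingtin-associated protein (r = 0.993). Pdyn was most like Hsd17b14 (r = 0.970), Fcgr2a (r = 0.969) and Cmpk2 (r = 0.964). The Oprm1 probe at base 2246 was most like Lrsam1 (r = 0.996), Pdxk (r = 0.990) and Tsc22d4 (r = 0.990). The 3 genes most like Penk had log2 fold changes of −0.48 to −0.43, with adjusted p of 0.161 to 0.199 in limma.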

How the data were processed

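Per the file headers, the authors deposited spot intensity values from Agilent Feature Extraction 10.7.3.1, background-subtracted and detrended within each array, and a table of the same values rounded (largest difference 0.05), with no normalization found between arrays. The methods of the study name dChip at an FDR of 0.1 and 0.05. Here 4259 control spots were left out and outlier spots were set to missing. From the log2 signal the log2 of each array's 75th percentile was subtracted, and spots of a probe were averaged. Probes well above background (at least 0.5 of their spots) on at least 4 arrays were tested with limma 3.58.1 in R 4.3.3, with no covariate and Benjamini-Hochberg adjustment. Exact tests used all 70 choices of 4 arrays. The fit was tested on simulated data with independent noise for each probe on each array. Effects shared by many probes of an array were not simulated, so the simulation does not cover them. The 5′ minus 3′ difference used probes at least 300 bases apart. For genes with several probes in the lists, the brightest stood for the gene. Genes named from the lists were those called at FDR 0.1 (up to 4 by p) or else the 2 with the smallest p. For Penk, Pdyn and Oprm1 the 3 most correlated symbols were named. The members and lists were chosen with earlier results of these data known. Alternatives were normexp (offset 50), quantile normalization, the deposited table, no filter on dim probes or one requiring all 8 arrays, robust estimation with a variance trend, array weights, a replicate block, the 5′ minus 3′ covariate, probes averaged by symbol, and each array left out. Leaving out stressed replicates 2 and 3, alone or with control replicate 2, was added after seeing the data. Coordinates are rn4, as the files give them, and no genome was read. The miRNA arrays were not analysed here.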

Additional observations from a re-analysis of the deposited data

Results flagged for a closer look

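In groups of 4 rats, 2 of 24 opioid signals held a rat far from the others, where chance gives 1 in 20 (1.2 of 24). For Oprm1 at base 1732, control replicate 3 was −5.93 and the other control rats −5.32 to −5.25, a gap of 0.896 of the range of the group. For Oprk1 at base 4060, control replicate 2 was −4.35 and the other control rats −3.19 to −3.09, a gap of 0.917 of the range.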

How the results depend on the processing

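The count of opioid probes passing FDR below 0.1 was 0 in limma with all 8 rats and became 7 with array weights, which gave control replicate 2 a weight of 0.107. It was 5 without control replicate 2 and stressed replicates 2 and 3, and ran from 0 to 5 on leaving out single rats. For all probes the 885 calls became 215 with normexp, 3010 with no filter, 11983 with array weights, 0 with the replicate block (4292 at an unadjusted p below 0.05), 2390 with the 5′ minus 3′ covariate, 0 without stressed replicates 2 and 3 (2158 at an unadjusted p below 0.05) and 6643 without control replicate 2 as well, and ran from 0 to 10038 on leaving out single rats. The 3 pathway list genes became 51 with array weights, 0 with the replicate block (10 at an unadjusted p below 0.05), 9 with the covariate, 0 without stressed replicates 2 and 3 (4 at an unadjusted p below 0.05) and 25 without control replicate 2 as well, and ran from 0 to 43 on leaving out single rats. Of all calls 74.0% were higher in stressed rats, against 88.4% with normexp, 61.3% with quantile normalization, 85.2% with no filter and 48.2% with the covariate.

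Of 236 opioid fold changes under alternatives, 204 kept their sign and side of the threshold, 17 kept their sign and newly passed it, and 15 turned sign. Oprd1 was −0.020 with normexp. With quantile normalization Oprm1 was −0.10 at base 1207 and −0.10 at base 1732, and Oprd1 −0.087. With the covariate Oprm1 was −0.27, −0.047 and −0.22 at bases 1207, 1732 and 2246, Oprd1 −0.20, Oprk1 at base 4060 0.32, Oprl1 at base 1044 −0.36 and Rest −0.070. On leaving out single rats, Oprd1 ran from −0.13 to 0.13, Oprm1 from −0.018 to 0.25 at base 1207 and from −0.061 to 0.25 at base 1732. The cause of these changes was not tested.

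Rats with the same replicate number share a slide column and nothing else in the labels. Their deviations from the group means correlated at 0.0951, 0.12, −0.0869 and 0.305 for numbers 1 to 4, and only number 4 correlated best with its own number, so the numbers were not taken to pair the rats. With the replicate block 0 opioid probes passed. Signal over background limits the Oprm1, Oprl1 and Oprk1 (base 1298) values.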
